A study of Mus musculus with 4 samples.

Results

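TBX5 binding was examined around 4 T-box genes, Tbx2, Tbx4, Tbx15 and Tbx18, in the mouse forelimb at embryonic day 10.5. Peaks were assigned to a locus by the position of the summit, the base of strongest binding in a peak. A peak named for a locus lies in its window and was not assigned to a gene. The windows ran from 85.4 to 86.0 Mb on chromosome 11 (Tbx2 and Tbx4, which are neighbours), from 98.7 to 99.5 Mb on chromosome 3 (Tbx15) and from 87.2 to 88.1 Mb on chromosome 9 (Tbx18). They held 73 of the 11224 deposited peaks, of which 26 lay in the Tbx2 and Tbx4 window, 18 in the Tbx15 window and 29 in the Tbx18 window.

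The study used chromatin immunoprecipitation followed by sequencing (ChIP-seq) to map where TBX5 sits on the genome. Its 4 libraries came from wild-type forelimbs of ICR mice, an outbred stock, and comprised 2 libraries precipitated with a polyclonal TBX5 antibody and 2 input libraries of sheared chromatin. The deposited result is 1 peak list for the TBX5 group, with no value per replicate and none for input, so no spread between replicates can be given for any peak. Whether the forelimbs of several embryos were pooled is not given in the sources used here, and the identity of the tissue cannot be checked against marker genes in a peak list.

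T-box factors bind DNA through a shared domain, the T-box, that recognises a short core sequence. TBX5 marks the forelimb and starts its outgrowth, and its closest relative TBX4 is known for a role in the hindlimb. Tbx2 and Tbx4 lie side by side in the genome, as their relatives Tbx3 and Tbx5 do. TBX2 is a repressor found at the anterior and posterior margins of the limb bud. TBX15 and TBX18 are a related pair with roles in limb mesenchyme and skeleton, and TBX18 is also known for the sinus node and the ureter.

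By the labels, positions are on mm10, which is GRCm38. However, 72 summits of the list, on 5 chromosomes, lie past the last protein-coding gene that RefSeq places there on GRCm38.p6, none of them on chromosomes 3, 9 or 11. A summit past the last gene does not by itself exclude GRCm38. The windows rest on approximate gene positions of the earlier build mm9: 85.65 Mb for Tbx2, 85.70 Mb for Tbx4, 99.1 Mb for Tbx15 and 87.6 Mb for Tbx18. That the list is on mm9 was not tested. All 4 genes also lie inside their window at their GRCm38.p6 positions, but how far a window reaches on each side of them differs between the builds. Peaks were counted by their deposited positions alone. The distance of a peak from a gene and the side it lies on turn on the build, and no peak was placed in an exon, intron, UTR or promoter. The order of protein-coding genes in GRCm38.p6 is Bcas3, Tbx2, Tbx4 and Brip1 on chromosome 11, Wars2, Tbx15 and Spag17 on chromosome 3, and Cep162, Tbx18 and Nt5e on chromosome 9.

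The sequence under a peak can be read only from a genome of the build of the list, which was not used here. Of the 4 genes, Tbx4 and Tbx18 had an entry in the RefSeq promoter table of GRCm38.p6. The 250 bases before the annotated start are shown, written 5′ to 3′ on the strand of the gene, to show the letters a T-box factor could meet there. Capitals mark the T-box core GGTGT or its reverse complement ACACC.
Tbx4, chr11:85896515-85896764 on GRCm38.p6, plus strand: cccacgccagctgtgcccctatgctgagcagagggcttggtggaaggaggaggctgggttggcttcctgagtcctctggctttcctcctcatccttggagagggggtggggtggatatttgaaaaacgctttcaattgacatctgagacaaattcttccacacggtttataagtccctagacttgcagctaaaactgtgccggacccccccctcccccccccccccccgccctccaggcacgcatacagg
Tbx18, chr9:87731261-87731510 on GRCm38.p6, minus strand: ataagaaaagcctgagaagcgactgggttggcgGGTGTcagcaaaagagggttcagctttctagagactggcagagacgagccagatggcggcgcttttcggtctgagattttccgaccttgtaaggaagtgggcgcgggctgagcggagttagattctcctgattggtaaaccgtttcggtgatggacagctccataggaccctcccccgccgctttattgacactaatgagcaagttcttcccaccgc
The core occurs once in the Tbx18 sequence, from base 34, and not in the Tbx4 sequence. It occurs on either strand in 36.2% of the 32851 RefSeq promoter windows of this length, so 1 match is common. The longer motif AGGTGTGA, which contains the core, is in 1.12% of them and in neither of the 2 shown. Because the build of the peaks is not settled, no peak was placed relative to these sequences.

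All 3 windows were densely filled with TBX5 peaks. The Tbx2 and Tbx4 window held 43.3 peaks per Mb, the Tbx18 window 32.2 and the Tbx15 window 22.5, while the whole list has 4.41 peaks per Mb between the first and last summit of each chromosome. For a background, the chromosomes were divided into tiles as wide as each window. In 600 kb tiles the median was 1 peak, and 0.160% of 4364 tiles held at least the 26 peaks of Tbx2 and Tbx4. In 900 kb tiles the median was 2 peaks, and 0.241% of 2905 tiles held at least the 29 peaks of Tbx18. In 800 kb tiles the median was also 2 peaks, and 1.53% of 3270 tiles held at least the 18 peaks of Tbx15. These shares describe the list and are not a test, since the loci were chosen with earlier results of these data known.

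**Figure D1:**
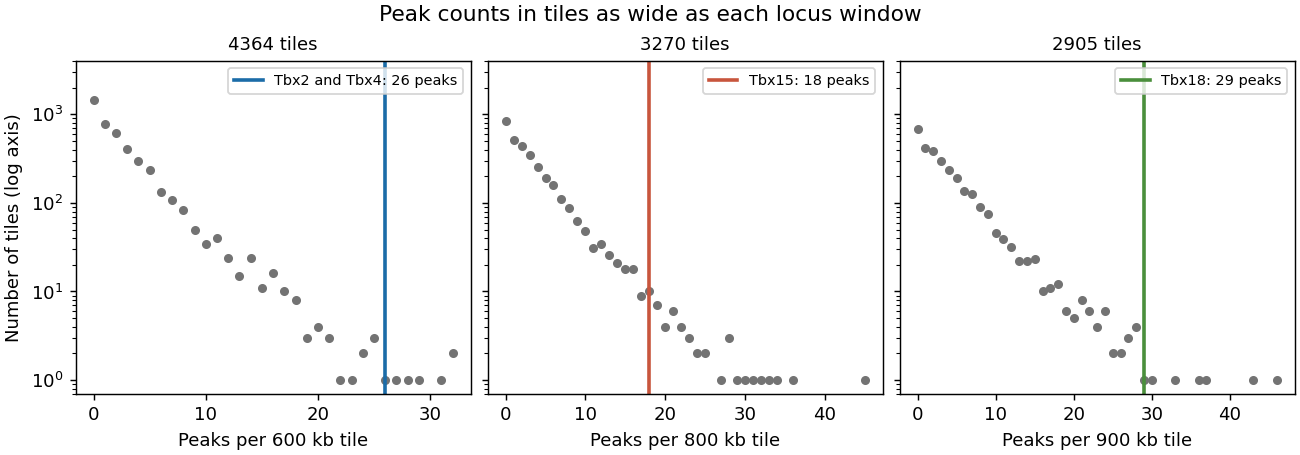
Number of genome tiles (vertical, log axis) against the number of peaks in a tile (horizontal), with 1 panel for each window width and a coloured line at the count of the T-box window. Most tiles hold few peaks, and the lines at 26, 18 and 29 peaks lie in the thin right-hand tail.

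Every stretch of the same width beside a window held fewer peaks than the window. Next to Tbx2 and Tbx4, 600 kb on the lower side held 3 peaks and 600 kb on the upper side held 1. Next to Tbx18 the 900 kb on either side held 7 and 3 peaks. Next to Tbx15 the 800 kb on the lower side held 1 peak, but those on the upper side held 13. The peaks around Tbx15 thus ran on past the window edge.

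Strength differed among the loci. The signal value is the strength that the authors' peak caller gave each peak, on a scale that is not stated. It is used here to describe and order peaks within this 1 list, and a ratio or difference of signal values is one of listed values, not of bound TBX5. At Tbx18 the signal spanned 10.4 to 141.4, the median was 49.96 and the quartiles were 30.6 and 78.0. The Tbx15 peaks ranged from 14.8 to 178.0 around a median of 40.98, with quartiles of 27.2 and 54.6. Those at Tbx2 and Tbx4 ranged from 7.31 to 122.6 around a median of 28.3, with quartiles of 18.8 and 45.6. In the whole list the median is 27.2 and the quartiles are 20.3 and 39.96, so the median was 1.84 times that of the list at Tbx18, 1.51 times at Tbx15 and 1.04 times at Tbx2 and Tbx4. The ranges of the 3 loci overlapped over most of their length, and the differences were not tested, because peaks of 1 list are not replicates.

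**Figure D2:**
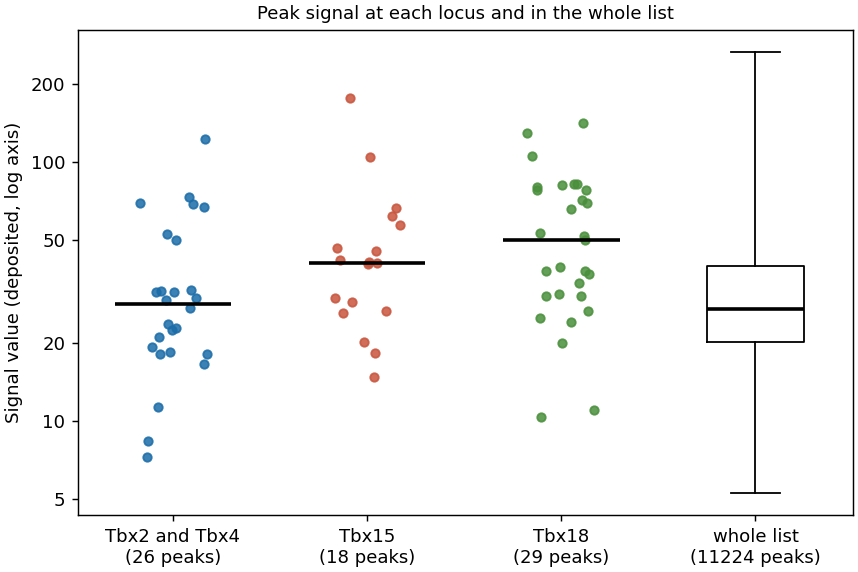
Deposited signal value of each peak (vertical, log axis) at the 3 loci, each point a peak and each black line the median of the locus, beside a box plot of the whole list (box from the lower to the upper quartile, whiskers to the lowest and highest peak). The medians are 28.3, 40.98 and 49.96 at the loci and 27.2 in the list.

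A larger share of the Tbx18 peaks stood in the upper part of the list. Signal was above the list median, as in 50.0% of all peaks, for 23 of 29 peaks at Tbx18, 13 of 18 at Tbx15 and 14 of 26 at Tbx2 and Tbx4. The upper 10% of the list by signal, 10% of all peaks with a value above 61.3, included 12 peaks at Tbx18, 4 at Tbx15 and 5 at Tbx2 and Tbx4. The counts are small. Exact 95% binomial intervals, which cover counting error only and treat peaks as independent, held the share of the list for both properties at Tbx2 and Tbx4 (33.4% to 73.4% and 6.55% to 39.4%) and at Tbx15 (46.5% to 90.3% and 6.41% to 47.6%). At Tbx18 they were 60.3% to 92.0% and 23.5% to 61.1%, above the shares of the list. However, 25 of the 29 Tbx18 peaks had another summit within 10 kb, so they may not be independent. The intervals may then be too narrow, and they are not a test of a difference from the list.

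Reproducibility followed the same order. The score of a peak is a scaled irreproducible discovery rate (IDR), an estimate from both replicates of how likely the peak is not to recur, and 1000 is its highest value. That score was reached by 26 of 29 peaks at Tbx18, 13 of 18 at Tbx15 and 13 of 26 at Tbx2 and Tbx4, against 45.4% of the list. An IDR of 0.01 or below, found for 60.0% of the list, was met by 27, 14 and 17 peaks. In the same order the shares were 89.7%, 72.2% and 50% for the highest score, and 93.1%, 77.8% and 65.4% for this IDR. Those at Tbx2 and Tbx4 were near the shares of the list. The lowest scores were 648 at Tbx18, 553 at Tbx15 and 541 at Tbx2 and Tbx4, where the limit of the list is 540. Whether the score was made from ranks of the same signal is not stated, so the order by score and the order by signal may not be separate evidence.

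Peaks with a q-value above 0.05, which make up 6.07% of the list, numbered 2 of 26 at Tbx2 and Tbx4, 1 of 29 at Tbx18 and 0 of 18 at Tbx15, which is near that share. The common width of 416 bp, shared by 84.3% of the list, was found in 19 of 26 peaks at Tbx2 and Tbx4, 11 of 18 at Tbx15 and 14 of 29 at Tbx18. None of the 12 Tbx18 peaks in the upper 10% by signal had that width. The same held for the 5 such peaks at Tbx2 and Tbx4 and the 4 at Tbx15. The trait is thus not particular to Tbx18, and its share in the upper 10% of the whole list was not counted.

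**Figure D3:**
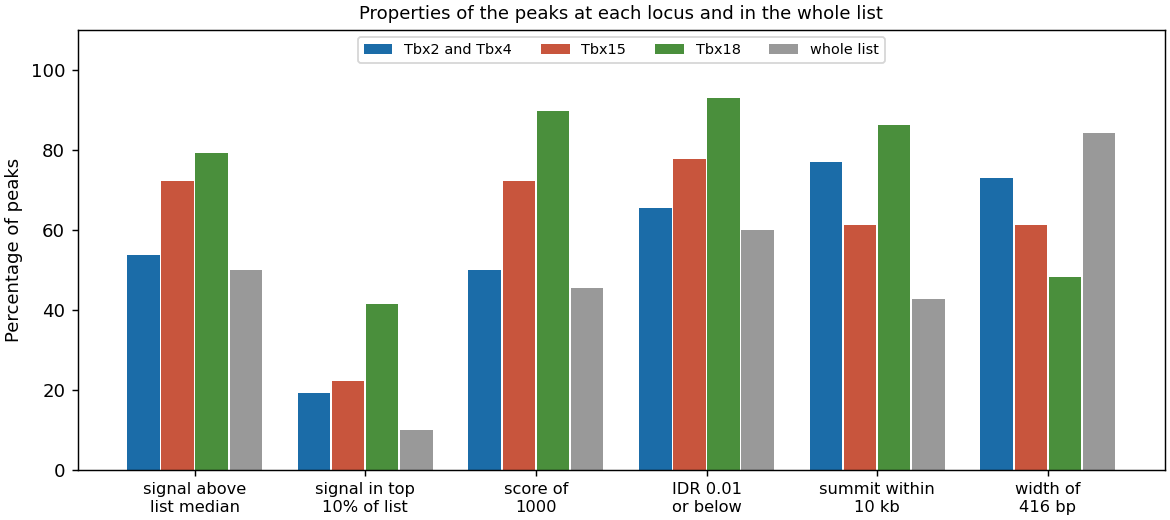
Percentage of peaks (vertical) that meet each property named on the horizontal axis, with 1 bar for each locus and a grey bar for the whole list. Of the 6 properties drawn, Tbx18 has the highest bar for all but the common width, where its bar is the lowest at 48.3%.

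At Tbx2 and Tbx4, with the approximate mm9 positions, which are single points, 19 of the 26 peaks lay below that of Tbx2, on the side of Bcas3. Another 3 lay between the approximate positions of the 2 genes, and 4 lay above that of Tbx4, on the side of Brip1. Read as GRCm38, all 26 lay below Tbx2. The strongest peak, on the Brip1 side only by the mm9 positions, was at 85829849 to 85830162 with its summit at 85830005, a signal of 122.6 and rank 146 in the list. The second, with a signal of 73.4, had its summit 547 bp away at 85830552. They were the last peaks of the window, and the next summit on the chromosome followed only 553567 bp further on.

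The other strong peaks at this locus were on the Bcas3 side in both readings. The third had its summit at 85548044 with a signal of 69.8, in a run of 4 peaks over 5.20 kb whose other signals were 32.3, 50.1 and 31.98. All 4 had the highest score. The fourth, at 85613585 with a signal of 68.9, stood alone, with no other summit within 10 kb. The fifth, at 85446152 with a signal of 67.4, belonged to a run of 5 peaks over 13.8 kb at the lower end of the window, in which the weakest signal was 8.44.

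Close to the approximate mm9 positions of the 2 genes the peaks were many but weak. Around Tbx2, 5 summits lay between 85644465 and 85647068, within 2.60 kb, with signals of 21.1, 18.6, 7.31, 29.4 and 19.4 in order of position. The value of 7.31 is the lowest of all 73 peaks, with a q-value of 0.453 but a score of 937. Only the peak with a signal of 29.4 reached a score of 1000. Around Tbx4, 4 summits from 85689652 to 85704107 had signals of 31.7, 27.3, 11.3 and 22.5, and the weakest of them was the nearest to the approximate Tbx4 position. Of these 9 peaks, 3 exceeded the list median of 27.2 and none was in the upper 10%.

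Fewer peaks were found at Tbx15, and they were more widely spaced. Chaining summits within 10 kb gave 12 groups for its 18 peaks, of which 7 were single peaks, and the largest group held 3. The longest stretches without a summit measured 181.0, 123.1 and 114.1 kb. The strongest peak of all 3 loci lay here, at 99469881 to 99470506 with its summit at 99470175, a signal of 178.0 and rank 30 in the list. This peak lay 370.2 kb from the approximate mm9 Tbx15 position and 29.8 kb inside the upper window edge. It was 626 bp wide and had a score of 1000. A peak with a signal of 62.0 had its summit at 99468010, and the weakest peak of the locus, with a signal of 14.8 and a score of 643, lay between them at 99469532.

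The second strongest Tbx15 peak was at the opposite, lower end of the window. Its summit was at 98795213 with a signal of 104.8 and rank 239, and a second summit with a signal of 29.0 was listed 208 bp away in the same interval of 98795037 to 98795481. The third had its summit at 99251294 with a signal of 66.6, and the fifth was at 99052770 with a signal of 57.2. Between 99052770 and 99128158, the stretch around the approximate Tbx15 position, 6 summits had signals from 18.4 to 57.2. The summit nearest to that position, at 99115723, had a signal of 45.3 and a score of 1000. By the approximate mm9 position, 6 peaks lay below it, on the side of Wars2, and 12 above it, on the side of Spag17. That position is a single point, so the peaks nearest to it may lie inside the gene. Read as GRCm38, with the start and end of the gene, 9 lay below, 2 within the gene and 7 above.

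The Tbx18 window held the most peaks, in 2 blocks with a thinly filled centre. By the approximate mm9 position, again a single point, 14 peaks lay below, on the side of Cep162. Their signals ran from 20.1 to 106.0 with a median of 61.6. On the side of Nt5e there were 15, with signals from 10.4 to 141.4 and a median of 38.2. Read as GRCm38, 17 lay below with a median of 51.96, 1 within the gene and 11 above with a median of 39.4. The approximate mm9 gene position fell in the longest stretch without a summit, 173.0 kb from 87453077 to 87626066. A second such stretch of 141.5 kb followed between 87738950 and 87880451.

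The strongest Tbx18 peak had its summit at 87960020, a signal of 141.4 and rank 89 in the list, and lay at 87959865 to 87960186. It belonged to a run of 5 peaks over 7.19 kb near the upper end, all with the highest score, whose other signals were 11.0, 77.9, 39.4 and 37.0. The second, at 87719565 to 87719839 with its summit at 87719709, had a signal of 129.6 and rank 126, and stood alone. The third, at 87447569 with a signal of 106.0, headed a run of 3 peaks over 5.51 kb whose other signals were 78.0 and 69.8. All 3 of that run were in the upper 10% of the list. The fourth had a signal of 82.5 at 87303781, and the fifth had a signal of 82.3 at 87880451. The summit nearest to the approximate gene position was at 87626066 with a signal of 26.7, the first of 3 peaks over 8.45 kb whose others had signals of 31.0 and 38.2. All 3 had the highest score and a signal below the upper 10%.

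**Figure D4:**
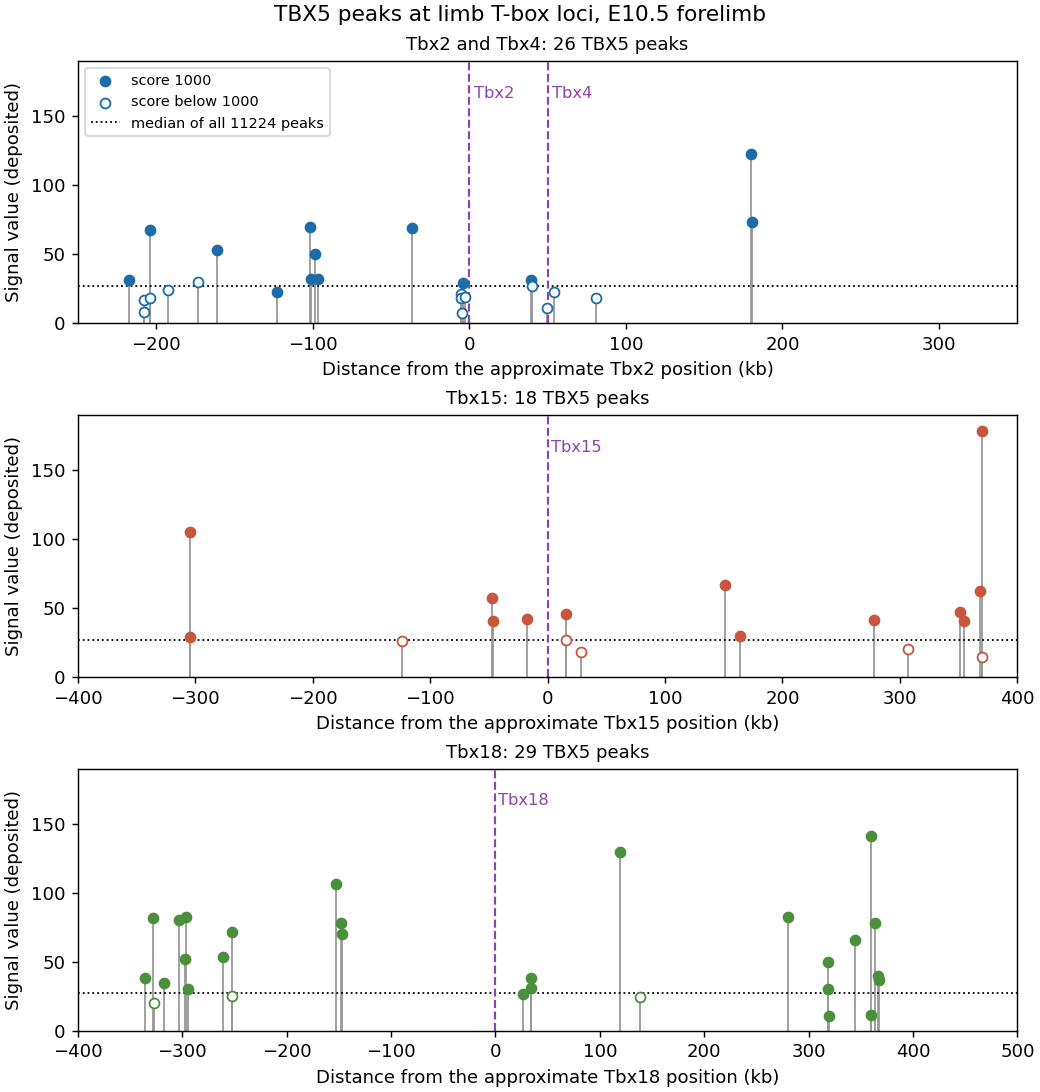
Deposited signal value (vertical) of every peak against its distance in kb from the approximate mm9 position of Tbx2, Tbx15 or Tbx18 (horizontal, dashed lines), with filled points for a score of 1000, open points for lower scores and a dotted line at the list median of 27.2. The strongest peak of each locus, at 122.6, 178.0 and 141.4, stands away from the dashed lines.

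With these approximate positions, the 20 peaks within 50 kb of a gene had a median signal of 27.0 and a highest signal of 68.9, against a median of 41.1 for the other 53. In the upper 10% of the list were 1 of the 20 and 20 of the 53. By locus the medians within and beyond 50 kb were 21.1 (11 peaks) and 31.98 (15 peaks) at Tbx2 and Tbx4. They were 31.0 (3 peaks) and 52.7 (26 peaks) at Tbx18, and 41.2 (6 peaks) and 40.98 (12 peaks) at Tbx15. The Tbx15 and Tbx18 positions are given only to the nearest 0.1 Mb, so membership near the 50 kb limit is uncertain there. The pattern also rests on the build and on how distance is measured, which were changed together. When the deposited positions were read as GRCm38, with distances to the ends of the RefSeq gene, 7 peaks lay within 50 kb of a gene. Their median was 66.6, against 33.3 for the other 66. The direction was reversed at Tbx2 and Tbx4 (98.0 against 25.6) and at Tbx18 (76.9 against 49.96). However, only 2 peaks lay within 50 kb at each of these loci, and those at Tbx2 and Tbx4 were 547 bp apart. Which peaks are near these genes therefore depends on the build of the list and on the measure of distance. The share of each in the reversal was not tested.

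Peaks often lay close to one another, least so at Tbx15. Another summit was found within 10 kb for 25 of 29 peaks at Tbx18, 20 of 26 at Tbx2 and Tbx4 and 11 of 18 at Tbx15, against 42.7% of the list. A higher share goes with the density of the windows, 22.5 to 43.3 peaks per Mb against 4.41, and is not a separate property. Whether peaks lay closer together than this density gives was not tested. At Tbx15 the exact 95% binomial interval, 35.7% to 82.7%, held the share of the list. It treats peaks as independent, which peaks that are neighbours of each other cannot be, so it is not a test. Chaining gave 11 groups at Tbx18, with 4 single peaks, and 11 at Tbx2 and Tbx4, with 6 single peaks. The largest groups held 5 peaks at each of these loci, and the widest group spanned 18.4 kb, at Tbx18.

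Some neighbours were very close. A stronger summit lay within 500 bp of 4 peaks at Tbx2 and Tbx4 (15.4%), 2 at Tbx15 (11.1%) and 3 at Tbx18 (10.3%). These shares were near the 10.1% of the list that has such a neighbour, so close pairs are not particular to these loci. The summits of these 9 pairs were 200 to 282 bp apart. At Tbx2 and Tbx4 the pair of signals 67.4 and 18.2 was 243 bp apart, that of 16.6 and 8.44 was 231 bp apart, that of 21.1 and 18.6 was 210 bp apart and that of 31.7 and 27.3 was 217 bp apart. At Tbx15 the pair of 104.8 and 29.0 was 208 bp apart and that of 45.3 and 26.6 was 282 bp apart.

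The most unequal pair was at Tbx18. Beside the strongest peak of that locus, with a signal of 141.4, a summit 202 bp away had a signal of 11.0, which is 0.0781 times as much, a q-value of 0.0390 and a score of 1000. The pair of signals 30.6 and 10.4, 207 bp apart, also had scores of 1000, although the weaker peak had a q-value of 0.0699. In the remaining pair, of 71.5 and 25.2, the summits were 200 bp apart. Joining overlapping or touching intervals left 64 sites of the 73 peaks, 22 at Tbx2 and Tbx4, 16 at Tbx15 and 26 at Tbx18.

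The window edges passed near other peaks only on some sides. Inside and outside the lower edge, the nearest summits had signals of 31.5 and 34.8 at Tbx2 and Tbx4, 104.8 and 28.0 at Tbx15, and 38.0 and 21.9 at Tbx18. At the upper edge they had signals of 73.4 and 27.5, 178.0 and 55.7, and 37.0 and 93.4. The nearest summits outside were 6.01 kb and 9.76 kb from the lower and upper edge of the Tbx18 window, 13.7 kb from the upper edge at Tbx15 and 94.0 kb or more from the other 3 edges.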

How the data were processed

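TBX5 binding was measured by ChIP-seq in 2 immunoprecipitated and 2 input libraries of E10.5 forelimbs. Per the labels, reads were single-end. The submitters' processing notes name FastQC and the build mm10. The aligner, the peak caller and its settings are not given in the sources used here. The authors deposited 1 list in narrowPeak layout without a header. Its deposited score is the scaled IDR, its deposited signal value is the strength of each peak, and its deposited −log10 q-value is the significance of each peak. The column for p-values is -1 throughout.

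Positions were converted to count from 1. Peaks were taken by summit position, an IDR of 0.01 was a score of at least 830, and summits were chained within 10000 bp. Tiles ran from the start of each chromosome to its last summit, and incomplete last tiles were left out. Python 3.11.15, NumPy 2.4.6, pandas 2.3.3, SciPy 1.17.1 and matplotlib 3.10.9 were used, and the counting was tested on planted peaks. No test was run, because the list has no values per replicate. Read depth is unknown, so no counting interval is given for a signal value.

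At each locus the 5 strongest peaks, the weakest peak, the peak nearest to the gene position, close pairs and the peaks at the window edges were named, and runs that contain them were described whole. The loci, lists and windows were chosen with earlier results of these data known.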

Additional observations from a re-analysis of the deposited data

How the results depend on the processing

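In total 116 alternative values were computed, of which 103 kept to the main value. A count was taken to do so within 1.5 times of it, a median within the quartiles of its locus, a percentage within its exact 95% binomial interval (counting error only, and peaks are not independent), and the difference by distance to a gene within 10. At an IDR of 0.01 or below, the number of peaks at Tbx2 and Tbx4 was 17 in place of 26. Under the same limit the share of tiles with at least as many peaks was 0.827% at Tbx15 and 0.0690% at Tbx18. With the window edges moved 100 kb inwards, 10 peaks in place of 18 were left at Tbx15, because peaks lie near both ends of that window. The share of peaks with another summit within 50 kb was 100% at Tbx2 and Tbx4, 94.4% at Tbx15, 100% at Tbx18 and 98.6% in all, and within 2 kb it was 58.6% at Tbx18 and 58.9% in all. These follow from the distance itself, and the list has 66.8% and 28.9%. The median signal within 50 kb of a gene minus that beyond was -10.8 at Tbx2 and Tbx4, -21.7 at Tbx18 and -14.1 in all. It became 72.4, 26.9 and 33.3 when positions were read as GRCm38, with distances to the gene ends. That alternative was chosen after the data were seen. In that reading only 2 peaks lay within 50 kb at Tbx2 and Tbx4, and 2 at Tbx18. Median signals stayed inside the quartiles of their locus under all 6 alternatives. Most alternatives used a part of the same peaks, and all these limits are wide. Keeping to the main value was therefore likely beforehand and is weak evidence of stability. T-box motifs in peaks were not run, since no genome of the build of the list was used here. No paired analysis was possible because 1 list stands for both replicates, which also means that no replicate could be left out. Without read depth, the list cannot show which sites at these genes were missed.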

Other observations

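Beyond the upper edge of the Tbx15 window, towards Spag17, the next 800 kb held 13 peaks with a median signal of 33.1 and a highest signal of 101.9. The corresponding stretch above Tbx18, towards Nt5e, held 3 peaks with a highest signal of 93.4, and the 900 kb below, towards Cep162, held 7 with a highest signal of 69.6. The 600 kb above Tbx2 and Tbx4, towards Brip1, held a single peak with a signal of 27.5.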
